A study of Mus musculus with 41 samples.

Results

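The ATP-binding cassette (ABC) genes were described in mouse liver and liver tumours from healthy liver through fatty liver and steatohepatitis to hepatocellular carcinoma. Members were taken by gene symbol, as every symbol made of Abc, a subfamily letter a to g, a number and at most 1 further letter. This gave 50 of the 24511 genes in the expression table. The symbol rule used no measured value, but the members were chosen with earlier results of these data known. Of these, 48 varied over the libraries and 40 had a mean log2 expression of at least 3, the level from which genes were tested, as did 12337 genes in all. Abca16 and Abcb5 were constant over all libraries. The 8 members under the minimum were Abca4, Abca12, Abca13, Abca14, Abca15, Abca17, Abcc8 and Abcg4, and none of them spanned more than 0.68 log2 units over the libraries.

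The study measured polyA RNA of livers or tumours of male C57BL/6 mice by RNA-seq, and 35 libraries in 11 groups were used. Tumour tissue (HCC) came from mice named IgAkMup (n = 4), CD8kMup (n = 3) and MupHe (n = 4), and liver with non-alcoholic steatohepatitis (NASH) from IgAkMup and MupHe mice (n = 3 each), all on a high-fat diet (HFD). Fatty livers that the labels call healthy came from HFD-fed B6 and IgAkCLM mice (HFD control, n = 3 each). Healthy livers, in groups with the mark NC that no label spells out, came from IgAkMup, CD8kMup, MupHe and B6 mice (n = 3 each). The labels give no ages and do not spell out the genotype names. As background, the published study of this title used MUP-uPA mice, in which the major urinary protein promoter drives urokinase in hepatocytes, so that the transgene acts in 1 liver cell type. Libraries are named by group and by the number in the column name, as in MupHe HCC 3, except NC livers, which carry the number of their sample title. Nothing in the labels says that replicates are separate animals, so p-values measure the spread between these samples, which may be technical.

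ABC proteins use ATP to move substrates across membranes, and the liver relies on them for bile formation. On the canalicular face of the hepatocyte they secrete bile salts, phospholipid, sterols and conjugates into bile, and on the sinusoidal face they return conjugates to blood. Other members load lipoproteins with cholesterol, import acyl-CoAs into peroxisomes or serve iron and heme handling in mitochondria, and subfamilies E and F are not transporters but act on ribosomes.

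Values are regularized log2 (rlog) expression as deposited, and a difference of 1 corresponds to a doubling. Where reads are few, such values are shrunk toward the gene's mean, which makes differences of low genes appear smaller. Values compare libraries of 1 gene and not genes with each other, since they are not scaled to transcript length. On the second principal component, which held 12.6% of the variance over the genes tested, the values were -29.08 for MupHe HCC 3, -28.45 for IgAkMup HCC 5 and -35.56 for IgAkMup HCC 9. The other 8 tumours lay between -5.12 and 24.72, so results on tumours are also given without these 3 divergent tumours where they change. The column names also hold a tag of unstated meaning. It is SS H for every tumour and Tri NC for every NC liver. It is SS N for IgAkMup NASH and B6 HFD control, and Tri N for MupHe NASH and IgAkCLM HFD control. No tumour shares its full tag with another tissue, and no NC liver does. Tag therefore cannot be told apart from stage or diet in HCC against NC or NASH, nor in NASH or HFD control against NC. HCC against NC, MupHe HCC against NASH, IgAkMup NASH against NC and B6 HFD control against NC also set SS against Tri. The labels do not say which gene each genotype alters. Cd8a, to which 1 of the names points, lay between 3.50 and 4.16 in CD8kMup tumours and between 3.66 and 4.22 in MupHe tumours, so the ranges overlap, at levels near the test's minimum. Cd8b1, under that minimum, lay between 1.76 and 1.86 in CD8kMup tumours and between 2.18 and 2.76 in MupHe tumours, with no overlap.

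Hepatocyte markers were expressed in every library. Their mean per library ranged over 14.02 to 15.12 in HCC and 15.46 to 15.84 in NASH, and these ranges do not overlap. Of the 6 hepatocyte markers 3 fell in HCC against NASH (Ttr, Cps1 and Cyp2e1, the last by 4.62), while Alb differed by -0.06. Cholangiocyte markers averaged 5.59 to 8.28 in HCC and 5.55 to 6.17 in NASH, with 4 of 7 higher and Krt7, Krt19 and Epcam not called. Stellate and fibroblast markers averaged 6.26 to 9.48 in HCC and 7.66 to 8.13 in NASH, with 4 of 6 higher and 2 lower. Of 4 T cell and 3 B cell markers, 2 and 1 reached the minimum for testing, and Cd8a was higher. The part of these cell types in the results below was not tested. In bulk tissue, fewer cells of a type and less RNA per cell cannot be told apart.

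Tumours showed higher expression of several export pumps of the blood-facing membrane and lower expression of the bile salt and phospholipid pumps of the canaliculus. The comparison of HCC with NASH asks how expression in tumours differs from that in the inflamed liver at the preceding labelled stage. It set the mean of IgAkMup and MupHe HCC (8 libraries) against the mean of IgAkMup and MupHe NASH (6 libraries). By limma, with p-values adjusted by Benjamini-Hochberg over 12337 genes and a threshold of 0.05, 8 of the 40 tested members rose and 10 fell. That is 45% of the members, beside 48.4% of all genes tested, so the share of members called was near the background. Of the 40 members, 8 (20%) were called and differed by at least 1 log2 unit, beside 8.52% of all genes. These 8 were Abcc4, Abcc5, Abcc12, Abcb1a and Abcc1, which were higher, and Abcb11, Abcb4 and Abcd3, which were lower. The median difference was -0.08 over the members and 0.01 over all genes tested. Among the 10 members that fell were also Abcc6, Abca6, Abcb10, Abcd4, Abcg2 and Abca1, and the 8 that rose were those named above with Abcb1b, Abcg1 and Abcg3. Tumour values overlapped NASH values for some of the 18, among them Abcg2, Abca1, Abcg3 and Abcb1b.

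**Figure D1:**
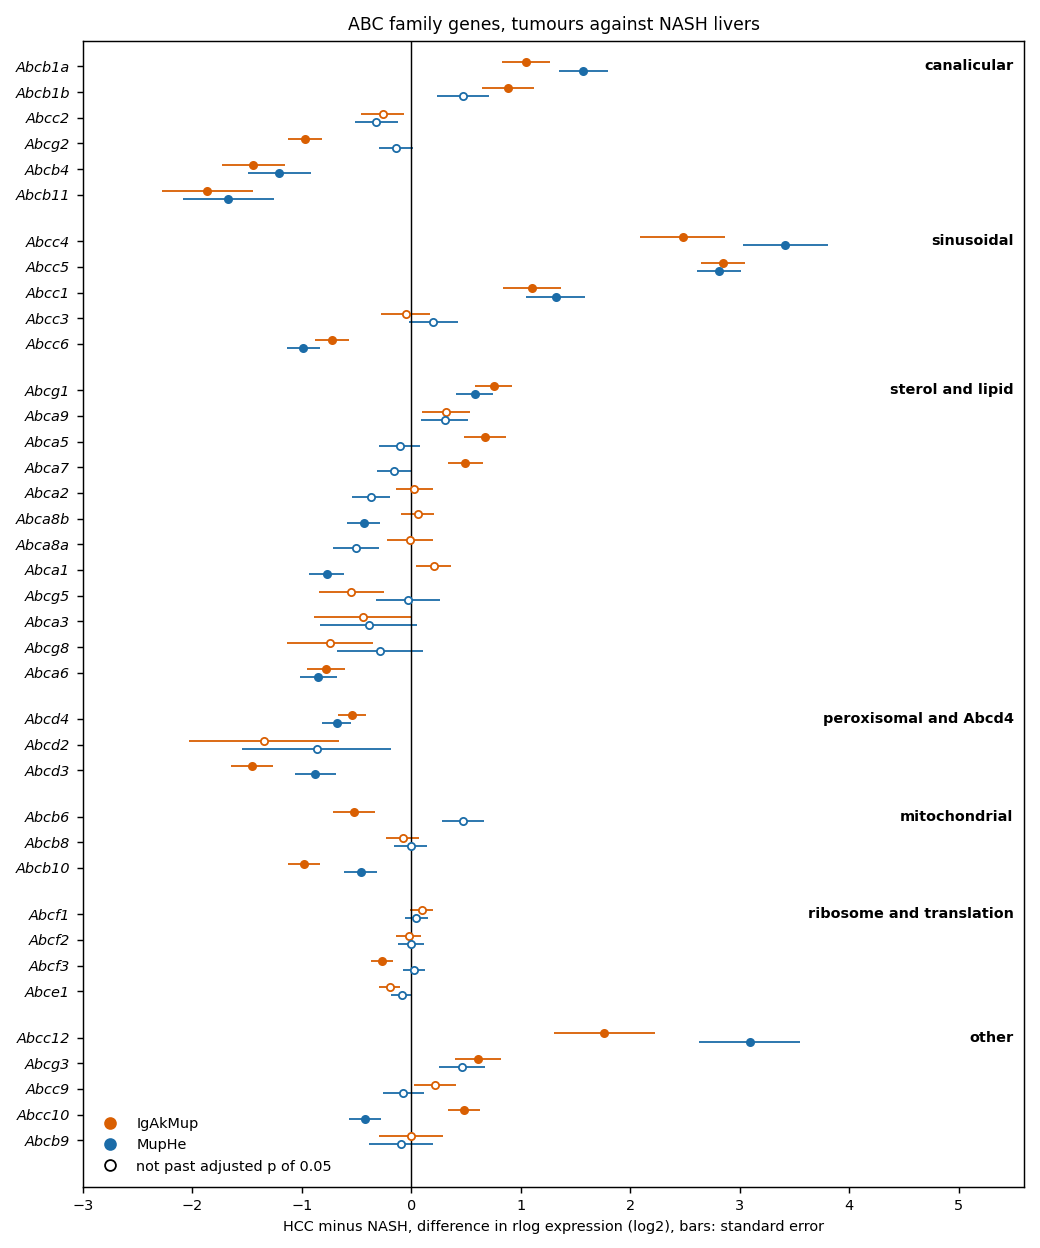
Difference in rlog expression (log2, horizontal axis) between HCC and NASH for tested ABC genes, by role, in IgAkMup (orange, upper point) and MupHe (blue, lower point) mice. Bars are standard errors, and open points did not pass an adjusted p of 0.05. Abcc4, Abcc5 and Abcc12 lie farthest to the right in both genotypes and Abcb11 farthest to the left.

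By genotype, 11 members rose and 11 fell in IgAkMup HCC against NASH (43.8% of all genes called), and 6 rose and 10 fell in MupHe HCC against NASH (30.7% of all genes called). In both, Abcb1a, Abcc1, Abcc4, Abcc5, Abcc12 and Abcg1 were higher, and Abca6, Abcb4, Abcb10, Abcb11, Abcc6, Abcd3 and Abcd4 were lower. Abcc10 was called in opposite directions. With both MupHe groups fitted alone, 8 members were called in MupHe, and among the calls lost were those of Abcb4, Abcb10, Abcb11, Abcc1, Abcc10, Abcd4 and Abcg1 (adjusted p = 0.0625 to 0.182). The MupHe call of Abcb10 was also lost without the 3 divergent tumours (-0.38, adjusted p = 0.0502) or without MupHe HCC 3, MupHe HCC 7 or MupHe NASH 6, and that of Abcg1 without MupHe NASH 6. The MupHe call of Abcc10 was lost without the divergent tumours (-0.36, adjusted p = 0.0651) or without MupHe HCC 3 or 4 or MupHe NASH 2 or 6, and its direction turned with IgAkMup NASH in place of MupHe NASH (0.54), as described with the tags. Its IgAkMup call was lost under quantile normalization (0.26, adjusted p = 0.16) and with both IgAkMup groups fitted alone. Without the 3 divergent tumours, HCC against NASH again gave 18 calls, 16 of them shared. Abca1 was among those no longer called, and Abca3 (0.40 ± 0.14) and Abca8a (-0.46 ± 0.15) were newly called. A further setting compared SS libraries alone (IgAkMup NASH as the only NASH group), and was chosen after the column names were seen. All 11 groups stayed in the fit, so Tri libraries still entered the estimate of spread. In this setting 19 members were called and 16 were shared. Abca1 was again among those lost, and Abca5, Abca7 and Abcc10 were called higher.

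The promoter windows of the sinusoidal pumps with the largest differences, and of Abcc12, come first, since these genes rose together in tumours. They run from 250 bases before to 50 after the annotated transcription start (RefSeq, GRCm38.p6, 5′ to 3′ on the gene's strand), and capitals mark each match to TGACNNNGC, the core of the antioxidant response element, on either strand. The windows are chr14:118706170-118706469 for Abcc4, chr16:20426345-20426644 for Abcc5 and chr8:86566541-86566840 for Abcc12, all on the minus strand. Those of Abcc4 and Abcc5 span the sequence upstream of the gene and the first bases of its transcript. The Abcc12 window lies inside the gene as placed by GENCODE (chr8:86482260-86580686), so it does not cover the outermost start of that gene. A second annotated Abcc4 start, at chr14:118676882-118677181, also has a match.
Abcc4 promoter: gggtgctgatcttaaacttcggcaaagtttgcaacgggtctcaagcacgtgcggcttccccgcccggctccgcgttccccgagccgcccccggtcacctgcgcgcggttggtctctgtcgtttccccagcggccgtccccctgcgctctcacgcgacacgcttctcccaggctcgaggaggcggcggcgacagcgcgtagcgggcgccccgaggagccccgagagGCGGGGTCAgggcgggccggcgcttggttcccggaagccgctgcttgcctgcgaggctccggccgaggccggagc
Abcc5 promoter: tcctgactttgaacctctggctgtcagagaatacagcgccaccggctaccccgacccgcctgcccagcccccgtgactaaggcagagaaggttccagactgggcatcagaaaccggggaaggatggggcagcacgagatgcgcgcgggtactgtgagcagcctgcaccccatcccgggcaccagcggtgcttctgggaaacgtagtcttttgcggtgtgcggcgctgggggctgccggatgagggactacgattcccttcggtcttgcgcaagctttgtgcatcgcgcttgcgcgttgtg
Abcc12 promoter: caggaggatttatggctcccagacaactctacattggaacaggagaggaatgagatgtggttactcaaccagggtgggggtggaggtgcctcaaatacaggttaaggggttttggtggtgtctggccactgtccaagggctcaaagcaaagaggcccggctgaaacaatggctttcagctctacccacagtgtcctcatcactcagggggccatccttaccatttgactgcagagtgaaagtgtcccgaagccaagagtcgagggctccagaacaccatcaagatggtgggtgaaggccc
The match in the Abcc4 window lies 25 bases before the start, and the Abcc5 and Abcc12 windows hold none. Over all members with a window, TGACNNNGC occurred in 7 of 45 windows (15.6%), beside 12.4% of all 32851 windows. The genes were Abca8b, Abcb1a, Abcc2, Abcc4 and Abcc10, 5 of 38 with a window. Among them Abcc4 and Abcb1a rose in HCC against NASH, while the others were not called. The Abcb1a window (chr5:8566841-8567140) lies upstream of the gene as placed by GENCODE (chr5:8660077-8748575). It does not cover the start given there.

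Abcc4, which exports cyclic nucleotides and, with glutathione, bile acids across the sinusoidal membrane, had 8.52, 9.47, 9.68 and 7.67 in IgAkMup HCC and 9.18, 10.34, 8.75 and 9.997 in MupHe HCC. In NASH livers it had 6.18, 6.33 and 6.56 (IgAkMup) and 6.28, 6.56 and 5.61 (MupHe). All 8 tumours lay above all 6 NASH livers, and the lowest tumour was IgAkMup HCC 9, 1 of the 3 divergent ones. The difference was 2.95 ± 0.27 (standard error; adjusted p = 1.58e-09, limma), or 7.71-fold, and 3.19 ± 0.24 without the 3 divergent tumours. The 3 CD8kMup tumours, which have no NASH group here, had 8.71, 9.82 and 8.77. NC livers ranged over 5.16 to 6.98 and HFD controls over 5.13 to 6.29, both below the lowest tumour value.

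Abcc5, a pump of cyclic nucleotides and nucleotide analogues, had 7.79, 8.09, 7.96 and 8.29 in IgAkMup HCC and 8.36, 8.27, 8.69 and 8.79 in MupHe HCC. NASH livers had 4.80, 5.22 and 5.52 (IgAkMup) and 5.65, 6.00 and 5.50 (MupHe). Its tumours varied less than those of Abcc4, and every one lay above every NASH liver. Abcc5 rose by 2.83 ± 0.14 (adjusted p = 1.87e-14, limma), or 7.10-fold, with similar values in IgAkMup (2.85 ± 0.20) and MupHe (2.81 ± 0.20). CD8kMup tumours had 8.18, 7.19 and 7.39. They, too, lay above all NASH livers, all HFD controls (5.19 to 5.82) and all NC livers (5.23 to 5.91).

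Abcc1, which exports glutathione conjugates and leukotriene C4, had 5.76, 5.57, 6.79 and 6.14 in IgAkMup HCC and 6.24, 6.84, 5.34 and 7.02 in MupHe HCC. In NASH it had 4.91, 4.78 and 5.19 (IgAkMup) and 5.13, 5.23 and 4.76 (MupHe). The groups do not overlap, and MupHe HCC 4 lay closest to the NASH livers. The difference was 1.21 ± 0.19 (adjusted p = 7.22e-06, limma). The 3 sinusoidal pumps with higher values were thus Abcc4, Abcc5 and Abcc1, of 5 on the list.

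The other two did not rise. Abcc3, the sinusoidal pump for glucuronides and a known bypass for canalicular export, had 11.13, 11.63, 11.03 and 11.66 in IgAkMup HCC and 11.55, 11.64, 11.19 and 12.21 in MupHe HCC. Its NASH values were 11.35, 11.45 and 11.45 (IgAkMup) and 11.47, 11.40 and 11.47 (MupHe). Tumours lay on both sides of the NASH livers, and the difference of 0.08 ± 0.16 was not called (adjusted p = 0.719, limma). Abcc6, which releases ATP from hepatocytes and so provides pyrophosphate against ectopic calcification, fell by 0.86 (standard error 0.11; adjusted p = 3e-07). Its range was 8.64 to 9.49 over the 8 tumours and 9.56 to 10.14 over the 6 NASH livers, with no overlap.

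Abcc12, a subfamily C member outside the role lists, had 4.27, 6.50, 6.48 and 4.99 in IgAkMup HCC and 6.87, 5.34, 6.26 and 8.14 in MupHe HCC. NASH livers had 3.59, 3.71 and 4.09 (IgAkMup) and 3.52, 3.79 and 3.38 (MupHe). Tumours were spread widely, with IgAkMup HCC 5 close to the highest NASH liver and MupHe HCC 7 highest, and the groups do not overlap. Abcc12 rose by 2.43 ± 0.33 (adjusted p = 7.29e-07, limma), and by 3.11 ± 0.25 without the 3 divergent tumours. HFD controls (2.87 to 3.57) and NC livers (2.76 to 3.72) lay in or below the NASH range, and CD8kMup tumours had 6.23, 5.05 and 6.16.

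**Figure D2:**
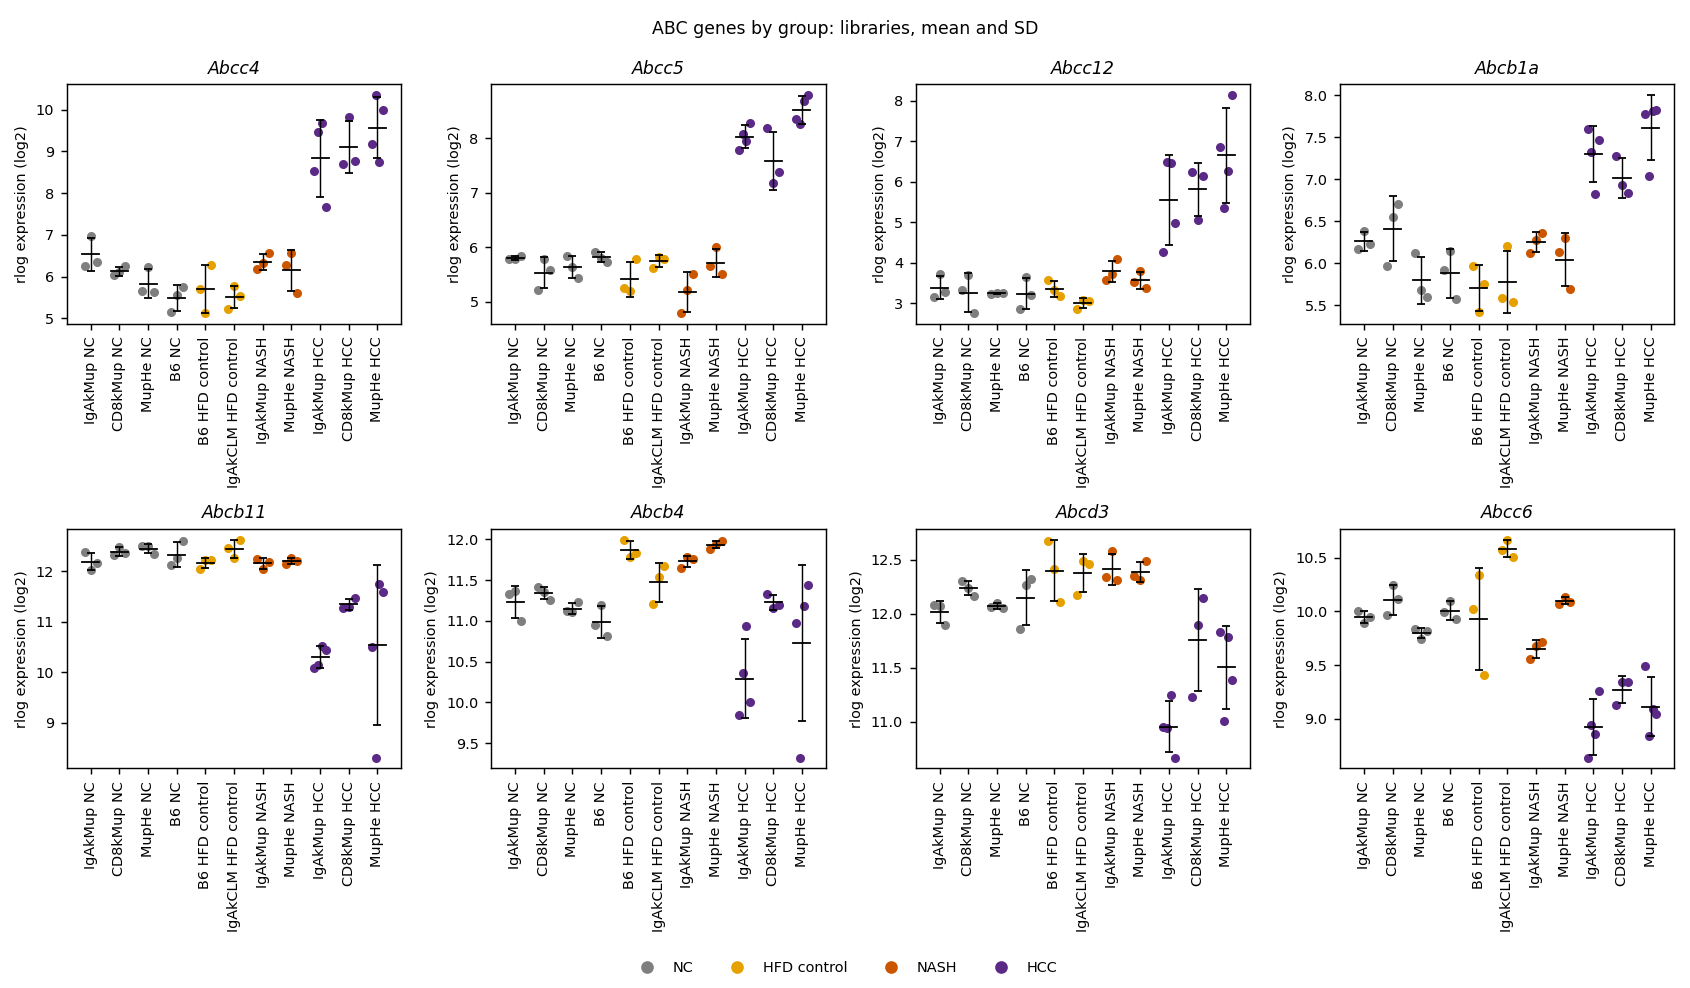
Rlog expression (log2, vertical axes) of 8 ABC genes in every library, by group, with the group mean and SD (n = 3, or 4 in IgAkMup HCC and MupHe HCC). Abcc4, Abcc5, Abcc12 and Abcb1a are higher in tumours than in all NASH livers, and Abcb11, Abcb4 and Abcc6 are lower. CD8kMup tumours lie in the upper part of the tumour range for Abcb11.

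Among the 6 canalicular members, the bile salt pump Abcb11, the phospholipid floppase Abcb4 and Abcg2 fell, the 2 P-glycoprotein genes Abcb1a and Abcb1b rose, and Abcc2 was not called. The promoter windows of Abcb11 and Abcb4 are shown because these were the canalicular genes with the largest decreases. They are chr2:69342567-69342866 (minus strand) and chr5:8893471-8893770 (plus strand), with the same source, extent and marking as above.
Abcb11 promoter: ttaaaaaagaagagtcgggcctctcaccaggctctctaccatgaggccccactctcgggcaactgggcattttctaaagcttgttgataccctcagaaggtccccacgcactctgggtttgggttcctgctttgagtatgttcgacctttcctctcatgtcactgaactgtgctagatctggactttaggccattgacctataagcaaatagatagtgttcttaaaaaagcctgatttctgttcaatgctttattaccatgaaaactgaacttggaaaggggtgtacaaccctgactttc
Abcb4 promoter: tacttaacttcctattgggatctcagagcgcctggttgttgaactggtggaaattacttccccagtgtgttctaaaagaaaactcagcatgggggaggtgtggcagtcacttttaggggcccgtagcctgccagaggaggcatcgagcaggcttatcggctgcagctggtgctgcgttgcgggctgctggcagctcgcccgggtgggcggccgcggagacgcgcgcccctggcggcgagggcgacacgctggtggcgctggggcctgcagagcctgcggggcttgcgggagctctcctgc
Neither holds TGACNNNGC. The inverted repeat bound by the bile acid receptor FXR (AGGTCA, 1 base, then TGACCT) and the direct repeat bound by LXR, PXR and CAR (AGGTCA, 4 bases, then AGGTCA) occurred on either strand in 0 of 45 member windows. Their shares of all windows were 0.00913% and 0.0152%. These exact letters are thus rare in any window of this length.

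Abcb11 had 10.08, 10.15, 10.52 and 10.45 in IgAkMup HCC and 10.50, 8.30, 11.76 and 11.58 in MupHe HCC. NASH livers had 12.25, 12.04 and 12.19 (IgAkMup) and 12.15, 12.26 and 12.21 (MupHe). NASH livers were tightly grouped and all tumours lay below them, with MupHe HCC 3 far below the rest. Abcb11 fell by 1.77 (standard error 0.29; adjusted p = 1.57e-05, limma), and the difference was -1.38 ± 0.15 without the 3 divergent tumours. In MupHe alone it was -1.67 ± 0.42, and without MupHe HCC 3 it was -0.93 (adjusted p = 0.000938), and the call was lost with both MupHe groups fitted alone (adjusted p = 0.182). CD8kMup tumours had 11.27, 11.29 and 11.48, below the lowest NC liver (NC range 12.03 to 12.61).

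Abcb4 had 9.84, 10.36, 10.94 and 10.01 in IgAkMup HCC and 10.97, 9.32, 11.18 and 11.44 in MupHe HCC, against 11.65, 11.78 and 11.76 (IgAkMup) and 11.89, 11.94 and 11.98 (MupHe) in NASH. All tumours lay below all NASH livers, and MupHe HCC 3, IgAkMup HCC 5 and IgAkMup HCC 9 were the lowest 3. The difference was -1.32 ± 0.20 (adjusted p = 5.45e-06, limma) and -0.91 ± 0.11 without those 3 tumours. In MupHe it was -1.20 ± 0.29, and -0.74 without MupHe HCC 3 (adjusted p = 0.00303), and the MupHe call was lost with both MupHe groups fitted alone (adjusted p = 0.132). NC livers had a lowest of 10.81, a median of 11.21 and a highest of 11.41, so the NASH livers lay above the NC livers, and part of the tumours lay within the NC range.

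Abcg2, which exports sulfated conjugates and many drugs, had 9.51, 9.54, 10.17 and 9.46 in IgAkMup HCC and 10.76, 10.24, 10.29 and 10.04 in MupHe HCC. NASH livers had 10.69, 10.81 and 10.42 (IgAkMup) and 10.53, 10.27 and 10.62 (MupHe). All IgAkMup tumours lay below all NASH livers, whereas MupHe tumours overlapped them. Abcg2 fell by 0.56 (standard error 0.11; adjusted p = 0.000125), with -0.97 ± 0.15 in IgAkMup (adjusted p = 1.38e-05) and -0.14 ± 0.15 in MupHe (adjusted p = 0.517).

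Abcc2, the canalicular exporter of conjugated bilirubin, had 11.02, 11.83, 11.31 and 11.39 in IgAkMup HCC and 12.37, 11.91, 11.30 and 11.86 in MupHe HCC. NASH livers had 11.55, 11.56 and 11.84 (IgAkMup) and 12.18, 12.25 and 12.12 (MupHe). Within each genotype the tumours overlapped the NASH livers, and the difference of -0.29 ± 0.14 was not called (adjusted p = 0.0859).

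Abcb1a, which encodes a P-glycoprotein that exports a wide range of hydrophobic compounds, had 7.59, 7.32, 6.83 and 7.47 in IgAkMup HCC and 7.78, 7.04, 7.82 and 7.83 in MupHe HCC. NASH livers had 6.13, 6.27 and 6.36 (IgAkMup) and 6.14, 6.31 and 5.69 (MupHe). No tumour overlapped a NASH liver, and Abcb1a rose by 1.31 ± 0.16 (adjusted p = 1.2e-07, limma). Its paralogue Abcb1b rose by 0.68 ± 0.17 (adjusted p = 0.0016), with 3.64 to 4.85 in tumours and 3.46 to 3.77 in NASH. The ranges overlap in 1 tumour, MupHe HCC 2. Abcb1a, Abcb1b and Abcb4 are neighbours on mouse chromosome 5, with gaps of 49.6 and 27.4 kb, and the first pair rose while the third fell. How reads were split between these similar paralogues is not given in the sources used here, so their separate values are uncertain to that extent.

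Other transporters of the hepatobiliary route were described from a list of 13, of which 11 were tested. In HCC against NASH 8 fell and 1 rose, with a median of -1.47, beside 48.4% of all genes called. The sinusoidal uptake carriers were among those that fell, with -3.25 ± 0.31 for the sodium-dependent bile acid carrier Slc10a1 and -3.05 ± 0.35 for the organic anion carrier Slco1b2. Slco1a1, another organic anion carrier, differed by -4.54 ± 0.31. Slc51b, a subunit of the basolateral bile acid exporter, rose by 0.80 ± 0.23. Of 12 nuclear regulators of these genes, 7 fell and Srebf2 rose, with a median of -0.37. The xenobiotic receptor CAR (Nr1i3) differed by -2.38 ± 0.44, the FXR target and repressor Nr0b2 by -1.24 ± 0.29 and FXR itself (Nr1h4) by -0.72 ± 0.12. Nfe2l2, the factor that binds the antioxidant response element, was not called (-0.18 ± 0.11, adjusted p = 0.155).

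In the peroxisomal subfamily, Abcd3 fell and Abcd2 was not called. Abcd3 (PMP70), which imports branched-chain acyl-CoAs and bile acid precursors, had 10.95, 10.95, 11.25 and 10.67 in IgAkMup HCC and 11.83, 11.01, 11.78 and 11.39 in MupHe HCC. NASH livers had 12.34, 12.58 and 12.32 (IgAkMup) and 12.35, 12.31 and 12.49 (MupHe). All 8 tumours lay below all NASH livers. Abcd3 differed by -1.17 ± 0.13 (adjusted p = 5.81e-08, limma) and by -1.01 ± 0.13 without the 3 divergent tumours, and by -0.78 under quantile normalization. CD8kMup tumours had 11.23, 11.90 and 12.15, of which 1 fell within the range of the other tumours and 2 lay above it. Its promoter window carried none of the 3 motifs.

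Abcd2, which carries very long-chain and polyunsaturated acyl-CoAs, had 6.45, 10.09, 8.99 and 5.72 in IgAkMup HCC and 8.93, 5.76, 8.68 and 9.002 in MupHe HCC. NASH livers had 9.07, 9.30 and 9.11 (IgAkMup) and 9.02, 9.01 and 8.84 (MupHe). The tumours fell into separate ranges: the 3 divergent tumours had 5.76 (MupHe HCC 3), 6.45 (IgAkMup HCC 5) and 5.72 (IgAkMup HCC 9), and the other 8 tumours of all genotypes had 8.51 to 10.09. The difference of -1.10 ± 0.48 was not called (adjusted p = 0.0596), and it was 0.15 ± 0.20, of the opposite sign and not called, without the 3 tumours. Abca3, known as the lipid transporter of lung surfactant, showed the same separation, with 7.65, 8.08 and 7.38 in these 3 tumours and 8.82 to 10.61 in the other 8. Abcb4 and Abcg8 were also lower in these 3 tumours than in the other 8, and Abca8a was higher, each with no overlap. The 3 tumours stand apart on a principal component of these same values, so their separation is no independent result. The share of all genes that separate them was not computed.

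Abcd4, a lysosomal protein needed for cobalamin export rather than a peroxisomal one, fell by 0.61 (standard error 0.09; adjusted p = 5.03e-06), with 5.18 to 5.96 in tumours and 6.04 to 6.38 in NASH.

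Of 11 other peroxisomal genes, all 11 fell in HCC against NASH, with a median of -0.94, beside 48.4% of all genes called. Examples are the thiolase gene Acaa1b (-2.08 ± 0.33), the sterol carrier gene Scp2 (-1.89 ± 0.17) and the Abcd3 import chaperone Pex19 (-0.39 ± 0.13). Ppara, which encodes the receptor that drives many of these genes, differed by -0.78 ± 0.14.

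**Figure D3:**
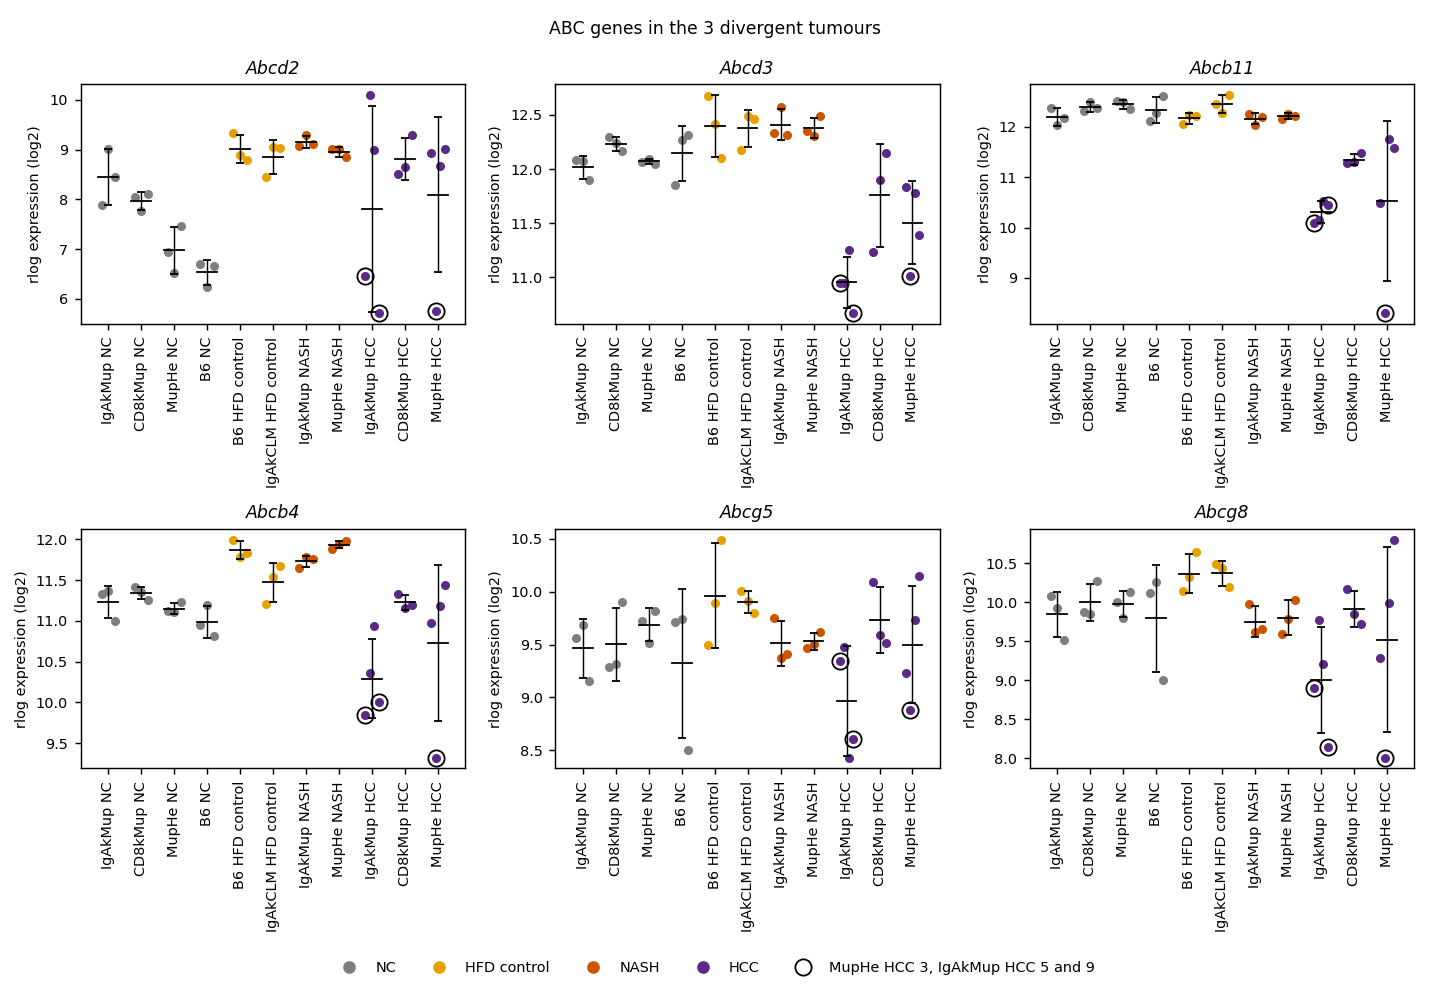
Rlog expression (log2, vertical axes) of 6 ABC genes in every library by group, with the group mean and SD, and rings around MupHe HCC 3, IgAkMup HCC 5 and IgAkMup HCC 9. The ringed tumours are the lowest for Abcd2, at 5.72 to 6.45 against 8.51 to 10.09 in the other 8, while for Abcd3 and Abcg5 they lie among or next to other tumours.

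Of the 16 sterol and lipid members 12 were tested. In HCC against NASH Abcg1 rose and Abca1 and Abca6 fell, with a median of -0.22, beside 48.4% of all genes called. Abcg1, which passes cholesterol to high-density lipoprotein, had 7.33, 7.45, 7.72 and 7.51 in IgAkMup HCC and 7.34, 7.51, 6.99 and 7.26 in MupHe HCC. NASH livers had 6.58, 6.87 and 6.79 (IgAkMup) and 6.76, 6.93 and 6.40 (MupHe). Every tumour lay above every NASH liver, and Abcg1 rose by 0.67 ± 0.12 (adjusted p = 4.44e-05, limma). Macrophages also express Abcg1, and of the 7 macrophage markers 3 rose (Cd68, Itgax and Cx3cr1) and 2 fell (Clec4f and Marco), with means per library of 6.81 to 7.77 in HCC and 7.17 to 7.80 in NASH. Their part in the Abcg1 difference was not tested.

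Abca1, which passes cholesterol and phospholipid to apolipoprotein A-I, had 9.90, 10.71, 10.49 and 10.41 in IgAkMup HCC and 9.87, 10.08, 9.91 and 10.18 in MupHe HCC. NASH livers had 9.99, 10.10 and 10.42 (IgAkMup) and 10.72, 10.87 and 10.76 (MupHe). MupHe tumours lay below all MupHe NASH livers, while IgAkMup tumours overlapped the IgAkMup NASH livers. The call for both genotypes together was the weakest of the 18, at -0.28 ± 0.11 (adjusted p = 0.0408). It was lost without any 1 of 7 of the 14 libraries, namely MupHe HCC 2 or 4, IgAkMup HCC 5, MupHe NASH 1, 2 or 6 or IgAkMup NASH 6 (-0.30 to -0.20, adjusted p = 0.0501 to 0.134), with no minimum mean (adjusted p = 0.0533), with the compared groups alone (adjusted p = 0.097), without the 3 divergent tumours (-0.18, adjusted p = 0.192) and under quantile normalization (-0.068, adjusted p = 0.661). With SS libraries alone compared, in the fit of all groups, the difference was 0.02 ± 0.14. Abca6, 1 of a row of neighbouring subfamily A genes on chromosome 11, fell by 0.81 (standard error 0.12; adjusted p = 3.85e-06) with no overlap. Its neighbours Abca5, Abca8a, Abca8b and Abca9 were not called in the same comparison.

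Abcg5 and Abcg8 encode the partners of the dimer that secretes sterols into bile. At the annotated starts used here they lie head to head on chromosome 17. These windows overlap, and both are shown for that shared stretch. The windows are chr17:84682962-84683261 for Abcg5 (minus strand) and chr17:84682871-84683170 for Abcg8 (plus strand). Capitals mark the 209 shared bases (chr17:84682962-84683170), which run on opposite strands. The Abcg8 window shown lies inside the gene as placed by GENCODE (chr17:84676302-84700333). A second annotated Abcg8 window, at chr17:84676052-84676351, covers the outermost start of that gene and is not shown.
Abcg5 promoter: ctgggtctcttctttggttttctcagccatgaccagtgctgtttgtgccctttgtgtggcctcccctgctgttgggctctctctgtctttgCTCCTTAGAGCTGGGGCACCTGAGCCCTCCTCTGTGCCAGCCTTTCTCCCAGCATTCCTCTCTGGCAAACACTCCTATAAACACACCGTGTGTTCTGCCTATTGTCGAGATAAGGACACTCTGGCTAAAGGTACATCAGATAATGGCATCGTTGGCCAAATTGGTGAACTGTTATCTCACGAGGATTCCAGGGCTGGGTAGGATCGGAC
Abcg8 promoter: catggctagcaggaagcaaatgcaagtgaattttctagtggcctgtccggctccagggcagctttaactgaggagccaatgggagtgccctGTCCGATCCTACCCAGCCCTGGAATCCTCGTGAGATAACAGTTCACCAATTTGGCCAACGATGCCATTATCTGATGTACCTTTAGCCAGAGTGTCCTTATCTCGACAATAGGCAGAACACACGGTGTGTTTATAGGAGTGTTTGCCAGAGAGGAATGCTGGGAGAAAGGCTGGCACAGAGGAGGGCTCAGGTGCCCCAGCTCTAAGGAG
Abcg5 had 9.35, 9.47, 8.43 and 8.61 in IgAkMup HCC and 9.23, 8.88, 9.73 and 10.15 in MupHe HCC, against 9.75, 9.37 and 9.41 (IgAkMup) and 9.47, 9.51 and 9.62 (MupHe) in NASH. Abcg8 had 8.91, 9.77, 9.21 and 8.15 in IgAkMup HCC and 9.28, 8.01, 9.99 and 10.80 in MupHe HCC, against 9.98, 9.61 and 9.66 (IgAkMup) and 9.59, 9.79 and 10.03 (MupHe) in NASH. For both, tumours lay on both sides of the NASH livers, MupHe HCC 7 was the highest tumour of those 8, and neither was called (-0.29 ± 0.21, adjusted p = 0.258, and -0.51 ± 0.28, adjusted p = 0.132). The difference of Abcg8 was -0.02 ± 0.21 without the 3 divergent tumours.

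Among the mitochondrial members, Abcb10, which supports heme synthesis, fell by 0.72 (standard error 0.11; adjusted p = 2.54e-06). Abcb6 and Abcb8 were not called. Abce1, which recycles ribosomes, and Abcf1, Abcf2 and Abcf3 gave 0 calls by limma in HCC against NASH and 1 at an unadjusted p under 0.05 (Abce1, -0.14 ± 0.07). In that comparison 48.4% of all genes were called. Of the 5 tested members outside these lists, Abcc12 and Abcg3 rose (0.54 ± 0.15 for Abcg3, a rodent relative of Abcg2), and Abcb9, Abcc9 and Abcc10 were not called. The transporters of antigenic peptides, which are ABC proteins with other symbols, rose as well, by 0.45 ± 0.12 (Tap1) and 0.86 ± 0.12 (Tap2).

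Tumour against NASH differences were compared between genotypes by the test of the difference itself, IgAkMup minus MupHe. It called 4 of the 40 members, 2 higher and 2 lower (quantile normalization gave 2 and 1), beside 10% of all genes, so the share of members called was at the background. The number called was 12 without MupHe HCC 3, 9 without the 3 divergent tumours, 2 without MupHe NASH 2 and 0 when the 4 groups were fitted alone. The share of all genes in those fits was not computed. Abca1 (0.98 ± 0.23, adjusted p = 0.00776) and Abcc10 (0.91 ± 0.21, adjusted p = 0.00743) had the higher difference in IgAkMup, and Abcb6 (-0.99 ± 0.27, adjusted p = 0.0194) and Abcg2 (-0.83 ± 0.22, adjusted p = 0.0158) the lower. The calls of Abcb6 and Abcg2 were each lost without either of 2 NASH libraries, MupHe NASH 2 or IgAkMup NASH 2 for Abcb6 and MupHe NASH 2 or IgAkMup NASH 3 for Abcg2. That of Abcg2 was also lost without the 3 divergent tumours (-0.68, adjusted p = 0.0503) and under quantile normalization (-0.59, adjusted p = 0.0796). In this comparison the tag moves with genotype for every gene, since IgAkMup NASH is tagged SS N and MupHe NASH Tri N. Abca1 and Abcc10 were lower in all 6 SS N libraries than in all 6 Tri N libraries, also among HFD controls. Of all genes tested, 9.14% did not overlap between these tags. With IgAkMup NASH, an SS N group, in place of MupHe NASH, MupHe HCC was higher for Abcc10 (0.54 ± 0.15, adjusted p = 0.00744) and not called for Abca1 (-0.16 ± 0.16, adjusted p = 0.483). Of the 14 members called after that exchange, which also changes the genotype, 13 had the same call with MupHe NASH.

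**Figure D4:**
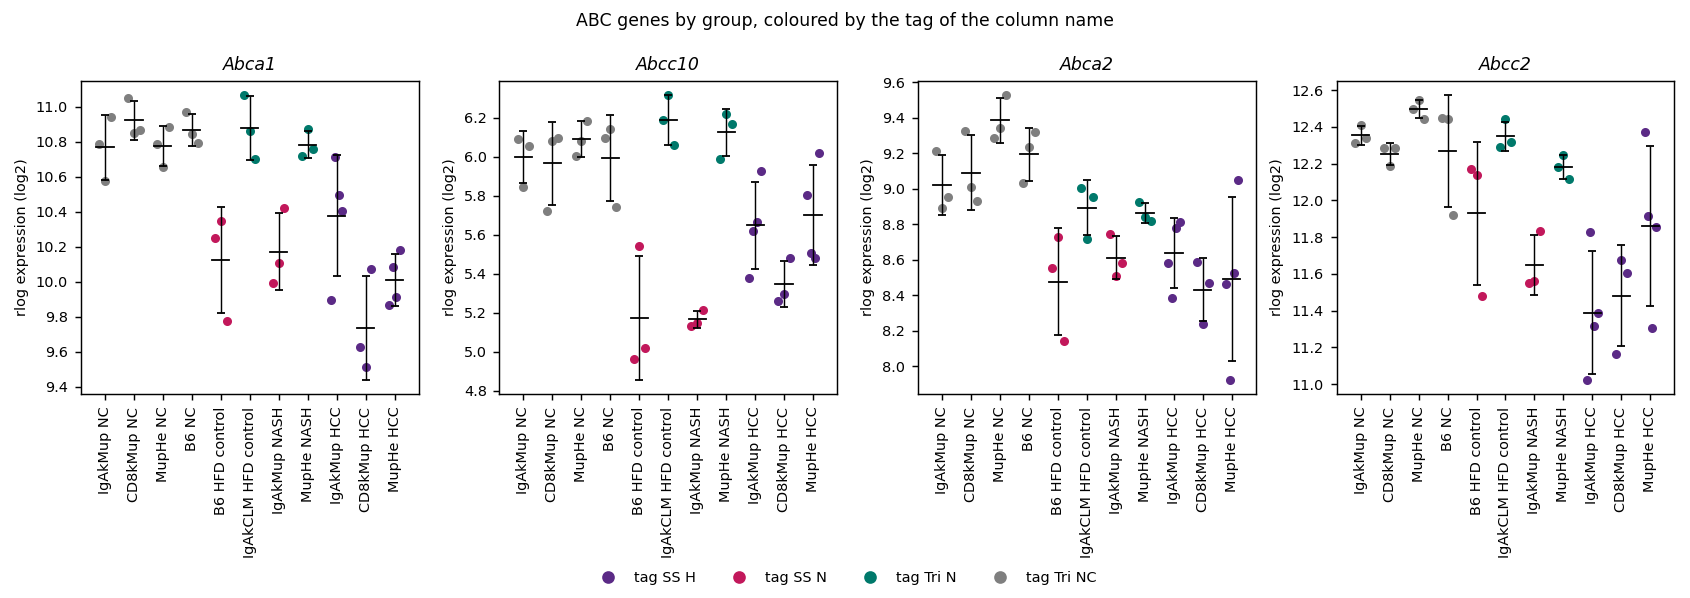
Rlog expression (log2, vertical axes) of Abca1, Abcc10, Abca2 and Abcc2 in every library by group, with the group mean and SD and points coloured by the tag in the column name. Abca1 and Abcc10 are lower in all 6 SS N libraries than in all 6 Tri N libraries.

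Tumours of different genotypes were compared within 1 tag. In IgAkMup against MupHe HCC, 4 members fell and none rose, beside 10.1% of all genes called (1 rose and 3 fell under quantile normalization). The share of members was near the background. Without MupHe HCC 3 the number was 13, without the 3 divergent tumours it was 9, and with both groups fitted alone it was 0, with no share of all genes computed. Among the 4 that fell were Abcb6 (-0.74 ± 0.18, adjusted p = 0.00896), Abcg2 (-0.66 ± 0.14, adjusted p = 0.0045) and Abcd3 (-0.55 ± 0.17, adjusted p = 0.0438). Abcb6, which acts in porphyrin transport, had 8.79, 8.52, 9.76 and 8.90 in IgAkMup HCC and 10.04, 9.34, 9.39 and 10.16 in MupHe HCC, so the groups overlap. The call of Abcd3 was lost without any 1 of MupHe HCC 2 or 4 or IgAkMup HCC 5, 7 or 9, with no minimum mean (adjusted p = 0.058) and under quantile normalization (-0.31, adjusted p = 0.2). Without the 3 divergent tumours, the calls of Abcd3 (-0.57) and Abcg2 (-0.51) were both lost (adjusted p = 0.0513 for each). In CD8kMup against MupHe HCC, 1.32% of all genes and 1 member were called. Abcc5 fell by 0.94 (standard error 0.20; adjusted p = 0.0206), with 8.18, 7.19 and 7.39 in CD8kMup HCC and 8.36, 8.27, 8.69 and 8.79 in MupHe HCC and no overlap. That call was lost without MupHe HCC 7, CD8kMup HCC 4 or CD8kMup HCC 8 (-0.85 to -0.74, adjusted p = 0.0741 to 0.178), and with both groups fitted alone. The number of members called was 2 without MupHe HCC 4 and 3 without the 3 divergent tumours.

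Against healthy livers, the same pumps stood apart. The mean of IgAkMup, CD8kMup and MupHe HCC was set against the NC livers of these genotypes, and 9 members rose and 16 fell, beside 62.4% of all genes called. Abcc4 (3.00 ± 0.23), Abcc12 (2.71 ± 0.27) and Abcc5 (2.39 ± 0.12) were highest and Abcb11 (-1.62 ± 0.25), Abca6 (-1.12 ± 0.10) and Abcc6 (-0.85 ± 0.09) lowest. These tumours are also those of HCC against NASH, so the values are not an independent check. Abcc2, which was not called against NASH, differed by -0.79 ± 0.12 from NC (adjusted p = 1.34e-06), and by -0.45 under quantile normalization, with the call kept. Abcb4 differed by -0.49 ± 0.17 (adjusted p = 0.0136). Without the 3 divergent tumours it was -0.22 (adjusted p = 0.0295), and its call was lost under quantile normalization (-0.28, adjusted p = 0.137) and with the compared groups alone (adjusted p = 0.0531). All 25 calls were kept when each library was left out in turn, and those of Abca5 and Abcg2 were lost without the 3 divergent tumours (adjusted p = 0.0638 and 0.0977).

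CD8kMup tumours, which did not enter HCC against NASH, gave 8 higher and 11 lower members against CD8kMup NC, beside 33.8% of all genes called. Abcc4 (2.97 ± 0.41, adjusted p = 6.36e-06), Abcc5 (2.05 ± 0.21, adjusted p = 9.51e-08) and Abcc12 (2.55 ± 0.49, adjusted p = 0.000262) were again the highest. Abcc4 had 8.71, 9.82 and 8.77 in CD8kMup HCC and 6.03, 6.10 and 6.24 in CD8kMup NC. Abcb11 had 11.27, 11.29 and 11.48 in CD8kMup HCC and 12.32, 12.49 and 12.37 in CD8kMup NC, which do not overlap, and the difference of -1.04 ± 0.44 was not called (adjusted p = 0.0692). For each gene the fit uses 1 estimate of spread for all groups, the widely spread MupHe tumours included. The decreases were led by Abca6 (-1.23 ± 0.18), Abca8a (-1.21 ± 0.22) and Abca1 (-1.19 ± 0.17). Of the 19 calls, 10 were kept without each library, and 12 were left without CD8kMup HCC 3. The others were Abca2, Abca8b, Abcb1a, Abcc1, Abcc2, Abcc9, Abcf3, Abcg1 and Abcg3, with adjusted p-values up to 0.274. Abcb1a had the largest move, to 0.38 without CD8kMup NC 1.

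Calls before the tumour stage depended on which groups were fitted together. In NASH against NC over both genotypes, 2 members rose and 4 fell (1 and 4 under quantile normalization), beside 16% of all genes called, so the share of members was near the background. With the compared groups alone, 14 members were called in this comparison, 10 in MupHe alone and 13 in IgAkMup alone. The share of all genes called in these fits was not computed, so these counts cannot be set against a background. Abcb4 (0.64 ± 0.22, adjusted p = 0.043) and Abcb8 (0.35 ± 0.11, adjusted p = 0.0358) were higher. Abcb1b (-0.76 ± 0.18, adjusted p = 0.00474), Abcc2 (-0.51 ± 0.15, adjusted p = 0.0186), Abca2 (-0.47 ± 0.13, adjusted p = 0.0146) and Abcc10 (-0.40 ± 0.11, adjusted p = 0.0152) were lower. The Abcb4 call was lost without any 1 of the 12 libraries (0.58 to 0.67, adjusted p = 0.0564 to 0.0991) and the Abcb8 call without any of 10 of them. Tri libraries alone were also compared, again chosen after the column names were seen. Abcb1b (-0.96 ± 0.26) was the only member called, and Abcc10 differed by 0.03 ± 0.16. This is MupHe NASH against MupHe NC in the fit of all 11 groups. It is therefore the same test as the MupHe comparison that follows. By genotype, IgAkMup NASH against NC gave 0 higher and 3 lower (Abcc10, Abcc2 and Abca1, 12.9% of all genes called), and MupHe NASH against NC gave 0 higher and 1 lower (Abcb1b, 1.93% of all genes called). The calls of Abca1 and Abcc2 were both lost without IgAkMup NASH 2 or 3 or IgAkMup NC 1 or 3, that of Abcc2 also without IgAkMup NC 2, and that of Abcb1b without any 1 of the 6 MupHe libraries or with no minimum mean.

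In NASH against fatty liver (HFD control), limma called 0 members (1.32% of all genes), with 7 members at an unadjusted p under 0.05. Quantile normalization gave 1 call, and the compared groups alone gave 3 (2 higher and 1 lower). Without B6 HFD control 3, or without IgAkMup NASH 6, 1 member was called. For libraries that share the tag Tri N, MupHe NASH against IgAkCLM HFD control gave 0 (0.559% of all genes) with 5 at an unadjusted p under 0.05, and 6 calls (1 higher and 5 lower) with these groups alone. Within SS N, IgAkMup NASH against B6 HFD control gave 0 (0.251% of all genes) with 3.

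In B6 mice the high-fat diet was set against NC, and 2 members rose and 6 fell (1 and 6 under quantile normalization), beside 20.6% of all genes called. Abcd2 had 9.33, 8.89 and 8.80 in B6 HFD control and 6.69, 6.25 and 6.66 in B6 NC, and was higher in all HFD livers. It rose by 2.47 ± 0.73 (adjusted p = 0.0164, limma), and the call was lost without B6 HFD control 1 or B6 NC 2 (2.31 and 2.33, adjusted p = 0.0569 to 0.0618). Among the other NC livers, Abcd2 had 7.88, 9.01 and 8.44 in IgAkMup, 8.05, 7.76 and 8.10 in CD8kMup and 6.93, 6.53 and 7.46 in MupHe. Those of IgAkMup and CD8kMup lay above all B6 NC livers. Of the 11 peroxisomal genes, 6 rose and none fell in the same comparison, with Acaa1b at 1.60 ± 0.50, Ehhadh, a β-oxidation enzyme, at 1.37 ± 0.35 and Pex11a, a peroxisome proliferation gene, at 1.32 ± 0.25.

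The second gene that rose in B6 mice on the high-fat diet was Abcb4 (0.88 ± 0.31, adjusted p = 0.0405), with 11.99, 11.79 and 11.83 in B6 HFD control and 10.95, 11.20 and 10.81 in B6 NC, which do not overlap. Its call was lost without any 1 of the 6 libraries. Abcc10, Abcb1b, Abca1, Abca8a, Abca2 and Abce1 fell, with differences of -0.82 (Abcc10) to -0.41 (Abce1). Only the calls of Abca1 and Abcc10 were kept without each library (3 calls were left without B6 HFD control 1 and 5 without B6 NC 2), and these 2 genes are the ones that separate the tags. With IgAkCLM HFD control, a Tri N group, in place of B6 HFD control, Abce1 was the only member called (-0.39 ± 0.11), Abca1 differed by 0.01 ± 0.17, Abcc10 by 0.20 ± 0.16 and Abcd2 by 2.31 ± 0.73 (adjusted p = 0.0919). That exchange changes the genotype as well.

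Between NC livers of different genotypes, limma called 0 members in each comparison with all groups in 1 fit. These were IgAkMup against MupHe NC (0.0162% of all genes, 1 member at an unadjusted p under 0.05), CD8kMup against MupHe NC (0.0162% of all genes, 2 members) and MupHe against B6 NC (0.0486% of all genes, 4 members). With the compared groups alone, 2 members were called higher in IgAkMup against MupHe NC, and with the NC groups alone 1 was called higher in MupHe against B6 NC.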

How the data were processed

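RNA-seq of polyA RNA was analysed in 35 columns of the expression table. Per the labels' protocols, the TruSeq Stranded mRNA kit was applied to 100 ng per library, and RNA came from AllPrep columns or, for some livers, from Trizol and RNeasy columns. The authors deposited regularized log2 (rlog) values. The submitters' processing notes name STAR for all samples, Cuffdiff for the 29 fed HFD, HOMER with DESeq2 for the 12 marked NC, and the mm10 build. They give no versions, and whether all libraries were normalized together, or which strand setting was counted, is not given in the sources used here. No counts were used, so depth and counting error cannot be stated.

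NC columns matched single samples by name, and the other columns matched a group. The 6 columns not used had names that matched more than 1 group, so CD8kMup NASH and CD8kCLM HFD control are not analysed here. All 11 groups entered 1 fit with limma 3.58.1 (R 4.3.3, eBayes with trend) over the 12337 genes with a mean of at least 3, tested on simulated data. P-values are two-sided and adjusted by Benjamini-Hochberg over these genes within each of 18 comparisons, with a threshold of 0.05, and errors of differences are standard errors. The members, role lists, partner and marker lists were chosen with earlier results of these data known. For members called in HCC against NASH with a size of at least 1, each IgAkMup and MupHe HCC and NASH value is given. The same holds for chosen well-known transporters. For some of these members other groups are given too, in part as ranges. Other members are given by range or difference, and a few are counted but not reported here by name. Promoter windows were read from RefSeq (GRCm38.p6), for 38 members, and gene neighbours from GENCODE.

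Alternatives were another minimum mean (none or 5), median centring, quantile normalization, the compared groups alone, the replicate number as a block, tag exchanges, the 3 divergent tumours left out and each library left out. Shares of all genes called are from the fit of all 11 groups. Apart from Tri libraries alone, which repeats a main comparison, they were not computed for the alternatives. Counts of members there have no background beside them.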

Additional observations from a re-analysis of the deposited data

Results flagged for a closer look

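Among the 8 tumours of IgAkMup and MupHe mice, 6 of 80 member-by-group tests had a library whose gap to the nearest other was above Dixon's critical share of the group's range. Chance gives about 1 in 20, and the share over all genes tested was not computed. The number of flags is therefore no result about the ABC genes. In IgAkMup HCC 8, Abcb9 (5.70), Abcf2 (8.70) and Abcg2 (10.17) lay above the other 3 tumours of the group. In MupHe HCC 3, 1 of the 3 divergent tumours, Abcb1a (7.04) and Abcd2 (5.76) lay below the other 3, and in MupHe HCC 2, Abcg3 (6.38) lay above them.

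For 4 members the difference of HCC from NASH varied with genotype by limma's test of that difference, IgAkMup minus MupHe. That is 10% of the 40 tested members, beside 10% of all genes, and 0 were called when the 4 groups were fitted alone. It was 0.98 for Abca1, 0.91 for Abcc10, -0.99 for Abcb6 and -0.83 for Abcg2. For all 4 the tag of the NASH libraries moves with the genotype, and its part was not tested.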

How the results depend on the processing

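Of 127 called results on single members, 72 kept their call in every alternative and left-out fit that tested them. In at least 1 alternative 45 were lost or reversed, and 6 of these reversed. The rest lost their call only when a library was left out. Abcb1b and Abcc12, with means under 5, were not tested at that minimum, which was not counted as a loss. With SS libraries alone, Abca1 differed by 0.022 in HCC against NASH. After the tag exchange in MupHe HCC against NASH, Abca8b differed by 0.093 and Abcc10 by 0.54. With Tri libraries alone, Abcc10 differed by 0.034 in NASH against NC. After the tag exchange in B6 HFD control against NC, Abca1 differed by 0.0091 and Abcc10 by 0.20. The choices of SS and of Tri libraries alone were made after seeing the data. For these and the tag exchanges only the compared groups changed, and all 11 groups stayed in the fit.

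With the compared groups alone, the number of members called was 8 in MupHe HCC against NASH, 0 in the difference between genotypes, 14 in NASH against NC, 10 in MupHe NASH against NC, 13 in IgAkMup NASH against NC, 3 in NASH against HFD control, 6 in MupHe NASH against IgAkCLM HFD control, 0 in IgAkMup against MupHe HCC, 0 in CD8kMup against MupHe HCC and 2 in IgAkMup against MupHe NC. Such fits have fewer libraries to estimate the spread. Without the 3 divergent tumours, 9 members were called in the difference between genotypes, 9 in IgAkMup against MupHe HCC and 3 in CD8kMup against MupHe HCC. With Tri libraries alone, 1 was called in NASH against NC, which is the main comparison of MupHe NASH against NC. After a tag exchange 6 were called in MupHe NASH against NC and 1 in B6 HFD control against NC. Without a minimum mean, and with a minimum of 5, MupHe NASH against NC gave 0, and quantile normalization gave 1 in NASH against HFD control. Apart from Tri libraries alone, the share of all genes called in these settings was not computed. The cause of these changes was not tested.

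Leaving out each library in turn gave 17 to 22 called members in HCC against NASH, 13 to 18 in MupHe, 19 to 23 in IgAkMup and 2 to 12 in the difference between genotypes (12 without MupHe HCC 3). It gave 25 to 28 in HCC against NC, 12 to 19 in CD8kMup HCC against NC (12 without CD8kMup HCC 3), 4 to 5 in NASH against NC, 0 in MupHe NASH against NC, 1 to 4 in IgAkMup NASH against NC, 0 to 1 in NASH against HFD control, 3 to 7 in B6 HFD control against NC (3 without B6 HFD control 1), 3 to 13 in IgAkMup against MupHe HCC (13 without MupHe HCC 3) and 0 to 2 in CD8kMup against MupHe HCC. It gave 0 in the other comparisons.

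With the replicate number as a block, the 3 comparisons within NC gave 0 called members, and without the block a fit of those groups gave 1 in MupHe against B6 NC. NC groups share replicate numbers, and over 18 pairs of same-numbered libraries the correlation of deviations was -0.21 to 0.23, with 3 over 0.1. Pairs with different numbers were not set beside them, so this cannot decide whether the numbers pair the samples. The numbers are those of the sample titles, which differ from the column names for some CD8kMup and IgAkMup livers. No paired analysis was possible for the other groups because their columns match a group and not a single sample. The precision is limited by 3 or 4 libraries per group and by rlog shrinkage of low values. The depth is unknown.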
